A study of Mus musculus with 14 samples.

Results

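Matricellular proteins were followed through 10 genes: periostin (Postn), tenascin C (Tnc), Sparc, the thrombospondins Thbs1 and Thbs2, the CCN family members Ctgf, Cyr61, Nov and Wisp1, and osteopontin (Spp1). They were taken by gene symbol from 23284 genes listed in each of 2 deposited expression tables, and all 10 were found in both. The study profiled mRNA by RNA-seq in EpH4 cells, a mouse mammary gland epithelial line, and in EpRas cells, the derivative of EpH4 transformed with H-Ras. Each line was left untreated or was given TGF-β3 at 1 ng/ml for 48 h, with 2 libraries in each of the 4 groups. In a separately processed set of 6 libraries, EpRas cells carried a control siRNA (siNC) or either of 2 siRNA pairs aimed at the ETS factors Etv4 and Etv5, each with and without TGF-β, with 1 library per condition. EpH4 cells were grown in 10% and EpRas cells in 4% serum, so serum and transformation cannot be told apart in any contrast of the lines, and each line was a single cell line.

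Matricellular proteins are secreted into the extracellular matrix but act mostly by binding receptors, growth factors and proteases rather than by building fibers. Many of them are low in resting adult epithelium and rise in wound repair, fibrosis and tumor stroma. TGF-β is a well known inducer of several of them, and Ctgf and Cyr61 are also standard targets of the transcriptional coactivators YAP and TAZ.

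Expression levels are given as FPKM, fragments scaled to transcript length and to the number mapped, which allows genes to be compared per length. Differences between groups of untransfected cells were tested with limma on log2(FPKM + 1) over 9100 genes that reached 5 FPKM in any library, at an adjusted p of 0.05. The log2 scale with 1 FPKM added understates the change of genes at low levels. Of the 10 genes, 8 reached 5 FPKM in untransfected cells, and Thbs2 and Nov did not. Postn reached it only in EpH4 cells and Wisp1 only in cells given TGF-β. All epithelial markers examined (6 of 6: Cdh1, Epcam, Krt7, Krt8, Krt18 and Krt19) reached 5 FPKM in untransfected cells, with sums of 4517 to 8173 FPKM for EpH4 and 2377 to 5047 FPKM for EpRas libraries. Krt19 was listed at 0 in the 4 EpH4 libraries and had 17.1 to 37.4 FPKM in the EpRas libraries. Of 4 endothelial markers none exceeded 0.461 FPKM (Cdh5), and Pecam1 and Tek were listed at 0. Of 4 macrophage markers, Ptprc and Emr1 were listed at 0, while Cd68 reached 7.13 FPKM and Csf1r 6.23 FPKM. The estimated depth was 3300000 to 7350000 fragments in the untransfected and 6870000 to 11950000 fragments in the transfected libraries.

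Without TGF-β, Spp1 had the highest level of the 10 genes in both lines, with means of 685 ± 5.30 FPKM (SD, n = 2) for EpH4 and 960 ± 28.7 FPKM for EpRas. After TGF-β, Ctgf was the highest in EpH4 cells at 1345 ± 61.1 FPKM (SD, n = 2). Sparc headed the order in EpRas cells with TGF-β at 659 ± 93.5 FPKM, but Sparc and the next gene, Spp1, overlapped between libraries. In the same group the successive neighbors from Sparc through Spp1, Ctgf and Tnc to Cyr61 all overlapped, whereas the step from Cyr61 down to Thbs1 did not. In EpH4 cells without TGF-β the only neighbors that overlapped were Cyr61 and Sparc.

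**Figure D1:**
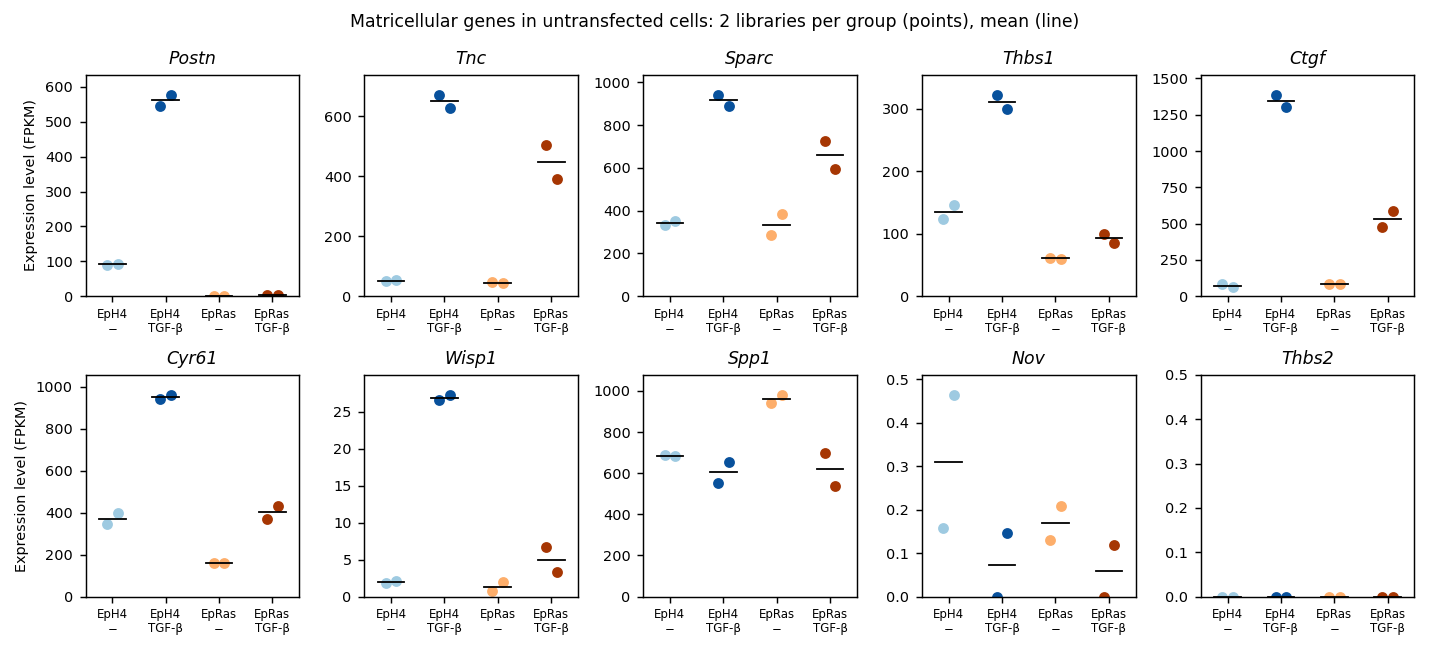
Expression level (FPKM, linear axis from 0, scaled separately in each panel) of the 10 genes in untransfected cells. Points are single libraries, 2 per group, and short lines are group means. Postn lay between 1.15 and 4.45 FPKM in the 4 EpRas libraries and between 89.5 and 577 FPKM in the 4 EpH4 libraries, and Thbs2 was listed at 0 in all 8.

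Postn encodes periostin, a fasciclin-domain protein that binds integrins and collagen. Its locus in the deposited table is chr3:54361107-54391041 (mm10). EpH4 cells contained 89.5 and 92.9 FPKM without TGF-β and 546 and 577 FPKM with it. EpRas cells contained 1.15 and 1.40 FPKM without TGF-β and 4.45 and 2.71 FPKM with it. Every EpRas library, treated or not, was below every EpH4 library. The mean level was 71.7-fold lower in EpRas than in EpH4 cells without TGF-β, a log2 difference of -5.34 ± 0.20 (SE; limma, adjusted p = 1.06e-05), and 157-fold lower with TGF-β, a log2 difference of -6.97 ± 0.20 (adjusted p = 2.68e-06). In a bulk library, fewer cells expressing a gene and less RNA per cell cannot be told apart. The EpRas levels rest on few reads, about 12 and 27 without TGF-β and 66 and 31 with it, as estimated from the depth of the libraries and the length of the transcript.

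TGF-β raised Postn 6.16-fold in EpH4 cells, a log2 change of 2.61 ± 0.20 (SE; limma, adjusted p = 0.000402). In EpRas cells the ratio of means was 2.82, a log2 change of 0.99 ± 0.20 (adjusted p = 0.0447). The EpRas call was lost in 11 of 17 alternative analyses, among them the omission of each library except EpRas TGF-β replicate 2. The difference between the log2 effects in the lines was -1.62 ± 0.29 (limma, adjusted p = 0.0649), and it passed the threshold in 4 of 16 alternatives.

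Among the genes with reference promoter sequence, Postn showed the largest difference between the lines, Tnc the largest TGF-β effect within EpRas cells and Cyr61 the largest spread between siRNA pairs without TGF-β, so the 250 bases upstream of their start sites are shown. The sequences are from RefSeq annotation on GRCm38.p6 and run 5′ to 3′ on the strand of the gene. For Postn the start that coincides with the deposited locus was used (chr3:54360857-54361106, plus strand), for Tnc the upstream of the 2 listed starts (chr4:64047016-64047265, minus strand), and for Cyr61, listed there as Ccn1, the single start (chr3:145649986-145650235, minus strand). Capitals mark TATAAA and, in Cyr61 only, also CATTCC.
Postn: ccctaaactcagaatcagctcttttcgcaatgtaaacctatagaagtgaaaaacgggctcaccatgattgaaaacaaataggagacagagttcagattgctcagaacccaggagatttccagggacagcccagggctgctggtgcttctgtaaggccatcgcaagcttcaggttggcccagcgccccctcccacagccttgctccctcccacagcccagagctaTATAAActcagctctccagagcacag
Tnc: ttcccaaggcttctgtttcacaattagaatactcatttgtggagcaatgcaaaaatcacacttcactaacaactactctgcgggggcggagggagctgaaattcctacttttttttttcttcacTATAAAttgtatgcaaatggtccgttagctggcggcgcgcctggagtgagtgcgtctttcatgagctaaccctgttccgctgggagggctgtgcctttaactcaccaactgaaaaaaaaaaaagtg
Cyr61: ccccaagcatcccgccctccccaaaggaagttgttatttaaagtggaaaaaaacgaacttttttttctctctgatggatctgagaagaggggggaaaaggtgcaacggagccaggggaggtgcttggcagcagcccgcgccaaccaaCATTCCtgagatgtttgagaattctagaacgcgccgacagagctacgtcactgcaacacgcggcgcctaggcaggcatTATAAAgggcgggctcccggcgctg
The letters searched were GGAATG (the TEAD motif, through which YAP and TAZ act), GTCTAGAC (SMAD), TGANTCA (AP-1) and CCGGAA (ETS), each on both strands, and TATAAA on the gene's strand only. The TEAD and ETS letters share GGAA and can overlap, which they did not here. TATAAA started 26 bases upstream in Postn, 126 in Tnc and 25 in Cyr61, and CATTCC, the reverse complement of the TEAD letters, started 103 bases upstream in Cyr61. Of 32536 mouse promoter windows of the same length, 7.55% held TATAAA, 12.6% the TEAD, 12.1% the ETS, 6.73% the AP-1 and 0.169% the SMAD letters. In the 3 windows printed, none of the SMAD, AP-1 or ETS letters was present. Such matches are descriptions of letters and not of binding.

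Tnc encodes tenascin C, a hexameric glycoprotein that modulates cell adhesion (chr4:63959785-64047015). EpH4 cells contained 49.4 and 54.6 FPKM without TGF-β and 672 and 629 FPKM with it. EpRas cells contained 45.9 and 45.1 FPKM without TGF-β and 505 and 390 FPKM with it. In each line both treated libraries lay far above both untreated ones. TGF-β raised Tnc 12.5-fold in EpH4 cells, a log2 change of 3.62 ± 0.17 (SE; limma, adjusted p = 6.07e-05), and 9.85-fold in EpRas cells, a log2 change of 3.26 ± 0.17 (adjusted p = 0.000231). EpRas and EpH4 cells differed by -0.19 on the log2 scale without TGF-β (95% interval -0.59 to 0.21; limma, adjusted p = 0.497). With TGF-β the difference was -0.55 (95% interval -0.95 to -0.15; adjusted p = 0.0598), and it passed the threshold in 3 alternatives, 1 of them the omission of EpRas TGF-β replicate 1 (adjusted p = 0.0251).

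Sparc is a collagen-binding protein that affects matrix assembly (chr11:55394501-55420080). EpH4 cells contained 334 and 351 FPKM without TGF-β and 943 and 889 FPKM with it. EpRas cells contained 286 and 384 FPKM without TGF-β and 726 and 593 FPKM with it. The untreated libraries of the lines overlapped, and all 4 treated libraries were above all 4 untreated ones. TGF-β raised Sparc 2.68-fold in EpH4 cells, a log2 change of 1.42 ± 0.19 (SE; limma, adjusted p = 0.00461), a call lost without EpH4 TGF-β replicate 1 (adjusted p = 0.0589). In EpRas cells the ratio was 1.97, a log2 change of 0.98 ± 0.19 (limma, adjusted p = 0.0363). The EpRas call was lost in 12 of 17 alternatives, including the omission of each library except EpRas TGF-β replicate 2. The lines differed by -0.05 without TGF-β (95% interval -0.49 to 0.40) and by -0.48 with it (-0.93 to -0.03; limma, adjusted p = 0.117).

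Thbs1 encodes thrombospondin 1, which inhibits angiogenesis through Cd36 and Cd47 and can activate latent TGF-β (chr2:118111922-118127133). EpH4 cells contained 124 and 147 FPKM without TGF-β and 323 and 299 FPKM with it. EpRas cells contained 61.7 and 59.2 FPKM without TGF-β and 100 and 85.6 FPKM with it. Even the treated EpRas libraries were below the untreated EpH4 libraries. Thbs1 was lower in EpRas cells by -1.15 ± 0.16 on the log2 scale without TGF-β (SE; limma, adjusted p = 0.00372) and by -1.74 ± 0.16 with it (adjusted p = 0.000389). TGF-β raised it 2.30-fold in EpH4 cells, a log2 change of 1.20 ± 0.16 (limma, adjusted p = 0.0047), a call lost without EpH4 TGF-β replicate 1 (adjusted p = 0.0637). In EpRas cells the log2 change was 0.61 (95% interval 0.23 to 0.99; limma, adjusted p = 0.106). Its relative Thbs2 (chr17:14665500-14694262) was listed at 0 in all 8 untransfected libraries. There 3 reads would have stood for about 0.0692 to 0.154 FPKM by transcript length and estimated depth. Levels below that could have gone unseen at this depth.

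Ctgf encodes connective tissue growth factor, a CCN protein linked to fibrosis (chr10:24595442-24598682). EpH4 cells contained 85.7 and 62.2 FPKM without TGF-β and 1388 and 1302 FPKM with it. EpRas cells contained 87.4 and 87.5 FPKM without TGF-β and 474 and 589 FPKM with it. Without TGF-β the EpRas libraries were slightly above the EpH4 libraries, and with TGF-β they were well below. TGF-β raised Ctgf 18.2-fold in EpH4 cells, a log2 change of 4.18 ± 0.20 (SE; limma, adjusted p = 6.07e-05), and 6.08-fold in EpRas cells, a log2 change of 2.58 ± 0.20 (adjusted p = 0.000761). The lines differed by 0.26 on the log2 scale without TGF-β (limma, adjusted p = 0.419) and by -1.35 ± 0.20 with it (adjusted p = 0.00333). The difference between the log2 effects was -1.60 ± 0.28 (limma, adjusted p = 0.0635), which missed the threshold and passed it with 5 FPKM in place of 1 FPKM added (adjusted p = 0.0399).

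Cyr61 encodes the CCN protein that binds αv integrins and heparan sulfate (chr3:145646971-145649985). EpH4 cells contained 343 and 396 FPKM without TGF-β and 942 and 960 FPKM with it. EpRas cells contained 158 FPKM in both libraries without TGF-β and 369 and 433 FPKM with it. The treated EpRas libraries thus overlapped the untreated EpH4 libraries. Cyr61 was lower in EpRas cells by -1.22 ± 0.16 on the log2 scale without TGF-β (SE; limma, adjusted p = 0.00245) and by -1.25 ± 0.16 with it (adjusted p = 0.00152). TGF-β raised it 2.57-fold in EpH4 cells (log2 1.36 ± 0.16; limma, adjusted p = 0.002) and 2.54-fold in EpRas cells (log2 1.33 ± 0.16; adjusted p = 0.00447), the latter call being lost in a fit of the EpRas groups alone (adjusted p = 0.077). The difference between the effects was -0.03 (95% interval -0.55 to 0.48).

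Wisp1, a CCN protein first known as a WNT-induced gene, was low (chr15:66891393-66923199). EpH4 cells contained 1.77 and 2.16 FPKM without TGF-β and 26.5 and 27.3 FPKM with it. EpRas cells contained 0.754 and 1.96 FPKM without TGF-β and 6.71 and 3.28 FPKM with it. The replicates of EpRas cells differed 2.61-fold without and 2.04-fold with TGF-β, the former from 13 and 63 reads. TGF-β raised Wisp1 13.7-fold in EpH4 cells, a log2 change of 3.24 ± 0.33 (SE; limma, adjusted p = 0.00115). In EpRas cells the log2 change was 1.33 ± 0.33 (limma, adjusted p = 0.0858), which passed the threshold without EpRas TGF-β replicate 2 (adjusted p = 0.0452). The untreated lines differed by -0.38 (95% interval -1.15 to 0.40; limma, adjusted p = 0.48). With TGF-β, Wisp1 was lower in EpRas than in EpH4 cells by -2.28 ± 0.33 (limma, adjusted p = 0.00308). The fourth CCN gene, Nov (chr15:54745928-54753761), had 0 to 8 reads per library, with at most 0.464 FPKM.

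Spp1 encodes osteopontin, a phosphoprotein that binds Cd44 and αv integrins (chr5:104435111-104441053). EpH4 cells contained 689 and 682 FPKM without TGF-β and 553 and 655 FPKM with it. EpRas cells contained 940 and 980 FPKM without TGF-β and 699 and 539 FPKM with it. It was the 1 tested gene of the group whose treated libraries lay below the untreated libraries in both lines. No Spp1 contrast passed the test. The log2 change with TGF-β was -0.19 in EpH4 cells (95% interval -0.60 to 0.23; limma, adjusted p = 0.58) and -0.64 in EpRas cells (-1.06 to -0.23; adjusted p = 0.118). The untreated lines differed by 0.49 (0.07 to 0.90; limma, adjusted p = 0.105).

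Counted together, TGF-β raised 7 of the 8 tested genes in EpH4 cells, all but Spp1, against 6.48% of all tested genes, and lowered none of the 8, against 2.91%. Wisp1 is among the 7 but was tested only through treated libraries, so its direction was partly built into the filter and the count gives it no support. In EpRas cells it raised 5 of 8, Tnc, Ctgf, Cyr61, Postn and Sparc, against 1.9% of all tested genes, while 1.92% were lowered. The count in EpRas cells fell to 2 when only the 2 EpRas groups entered the fit and to 3 on omission of each of 7 libraries, and it was 6 without EpRas TGF-β replicate 2. The median log2 change of the 8 genes was 2.01 in EpH4 and 1.16 in EpRas cells, against -0.02 for all tested genes in both lines. EpRas cells were lower than EpH4 cells in 3 of 8 genes without TGF-β (Postn, Cyr61 and Thbs1), against 9.11% of all tested genes. With TGF-β they were lower in 5 of 8 (these 3, Ctgf and Wisp1), against 12.3%, and Postn, counted in both, was tested only through EpH4 libraries, so it could hardly have passed in the other direction. No gene of the 8 passed the test as higher in either state, where 8.45% and 8.92% of all genes did. The effect of TGF-β passed the test of a difference between the lines in 0 of 8 genes by limma, against 0.626% of all tested genes with a lower and 0.176% with a higher effect in EpRas cells. At an unadjusted p under 0.05 there were 4 of 8, against 10.9% of all tested genes. These p-values rest on the spread between the 2 libraries of each group, pooled over the 4 groups and moderated by limma across tested genes.

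**Figure D2:**
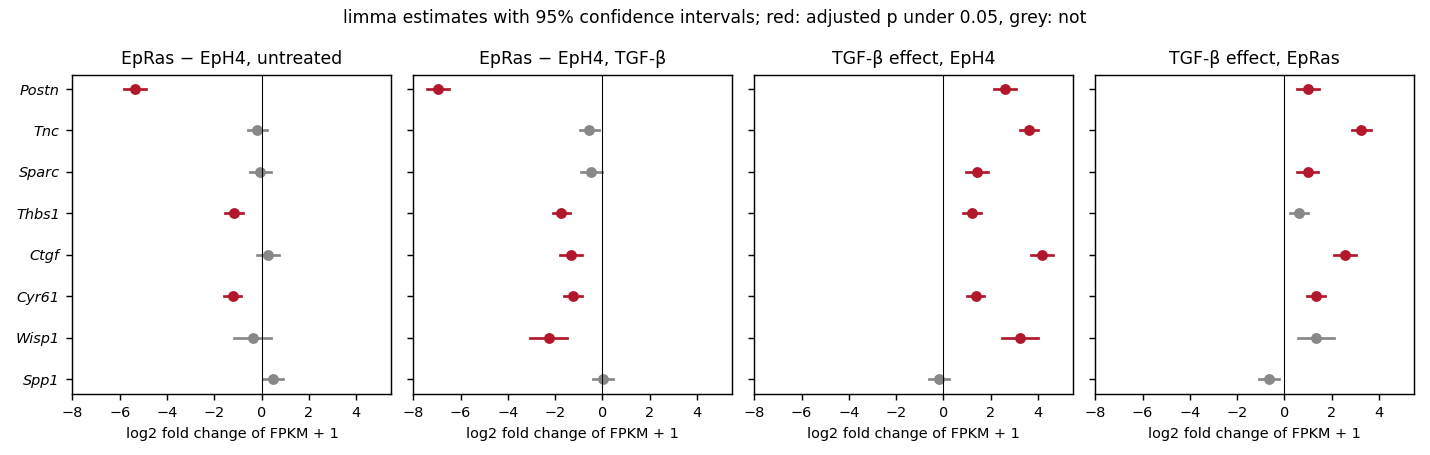
Differences of the 8 tested genes between groups of untransfected cells, as log2 fold change of FPKM + 1 (horizontal axis) with 95% confidence intervals from limma. Red marks an adjusted p under 0.05 and grey the rest. Postn lay farthest from 0 in both contrasts of the lines, at -5.34 and -6.97, and Spp1 was grey in all 4 panels.

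Markers of other cell states moved with some of these genes. The summed level of 6 fibroblast markers (Col1a1, Col1a2, Col3a1, Pdgfra, Dcn and Lum) was 21.7 and 25.8 FPKM in EpH4 libraries lacking TGF-β, 239 and 215 FPKM in those given it and 4.61 to 5.81 FPKM over all EpRas libraries. Col1a1 made up most of the sum in the treated EpH4 cells, 2 of the 6 reached 5 FPKM, Lum was listed at 0 and Dcn reached at most 0.175 FPKM. Pdgfra went the other way between the lines. It had 0.668 and 0.986 FPKM in EpH4 and 2.33 and 3.16 FPKM in EpRas libraries lacking TGF-β. With TGF-β the values were 2.27 and 2.07 FPKM for EpH4 and 2.90 and 2.57 FPKM for EpRas. The 3 basal markers Krt5, Krt14 and Trp63 summed to 334 to 855 FPKM for EpH4 and 62.2 to 116 FPKM for EpRas. Nearly all of it came from Krt14, with Krt5 at 0.0856 FPKM or less and Trp63 at 8.60 FPKM or less. With TGF-β in EpH4 cells Krt14 went from 327 and 386 to 851 and 784 FPKM. Trp63 went the other way, from 7.37 and 8.60 to 4.64 and 5.52 FPKM. The macrophage markers summed to at most 2.09 FPKM in EpH4 libraries lacking TGF-β, 6.52 and 8.49 FPKM in those given it and 4.50 to 8.27 FPKM over the EpRas libraries. The part of these lists in the differences of Postn and the others was not tested.

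For each tested gene, the genes whose log2 levels ran most nearly parallel were sought over the 8 untransfected libraries, as a description. These 8 points are 4 groups of 2, so any gene that separates the same groups scores high. Among the nearest to Postn were Nt5dc2 and Parp12 (Pearson r = 0.997 for each). For Tnc the nearest were Fam132b, Pdgfa and Jag1 (0.992, 0.992 and 0.989), and among those of Ctgf were Hsd11b2 and Acsbg1 (0.995 and 0.992). Sparc ran with Fam114a1, Itga2 and Exoc3 (0.987, 0.983 and 0.982). Thbs1 ran with Npr2, Myo7a and Serpinh1 (0.992, 0.992 and 0.991). Cyr61 ran with Maged2, Sdc3 and Atp2b4 (0.996, 0.995 and 0.99), and Wisp1 with Fbxo32, Aplp2 and Syt17 (0.984, 0.983 and 0.983). Spp1 had the least close neighbors, Prpf38a, Sord and 1810027O10Rik (0.959, 0.958 and 0.948).

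Receptors that bind matricellular proteins were taken as a list of 17 genes, 11 of which were tested. Without TGF-β, 4 of 11 were higher and 2 lower in EpRas than in EpH4 cells, against 8.45% and 9.11% of all tested genes, with a median log2 difference of 0.00487. The endocytic receptor Lrp1 was higher by 1.40 ± 0.21, the hyaluronan and osteopontin receptor Cd44 by 1.16 ± 0.21 and the fibronectin-binding integrin subunit Itga5 by 1.12 ± 0.17 on the log2 scale (SE; limma, adjusted p = 0.00484, 0.00999 and 0.0045). Stab1, a scavenger receptor for Sparc, was lower by -1.41 ± 0.15 (limma, adjusted p = 0.00112), and Itgb6, which pairs with αv in an integrin that activates TGF-β, by -0.996 ± 0.176 (adjusted p = 0.00905). With TGF-β, 2 were higher and 3 lower, against 8.92% and 12.3%, among them Itgb5 at -1.92 ± 0.17 (limma, adjusted p = 0.000322). Stab1 and Itgb6 are among the lower ones in both states. In untransfected EpRas cells Stab1 reached at most 2.65 FPKM and Itgb6 at most 0.835 FPKM. Both were thus tested only through EpH4 libraries and could hardly have passed as higher in EpRas cells, so these counts give them no support.

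TGF-β raised 6 of the 11 receptors in EpH4 cells, against 6.48% of all tested genes, led by Itga5 (2.45 ± 0.17), Stab1 (1.84 ± 0.15) and Itgb5 (1.60 ± 0.17) on the log2 scale, with a median of 0.97. In EpRas cells it raised Itga5 (1.91 ± 0.17) and Stab1 (1.22 ± 0.15) and lowered Sdc4 (-0.89 ± 0.16), against 1.9% raised and 1.92% lowered of all tested genes, with a median of 0.30. Stab1 stayed under 5 FPKM in EpRas cells, at 0.681 and 0.443 FPKM untreated and 2.65 and 2.59 FPKM treated. The effect on Itgb5 was smaller in EpRas cells by -1.71 ± 0.24 (SE; limma, adjusted p = 0.0287). Of the receptors counted as raised in EpH4 cells, Stab1 and Itgb6 reached 5 FPKM only among treated EpH4 libraries. Stab1 had 3.02 and 3.27 FPKM untreated and 13.1 and 14.7 FPKM treated there, and Itgb6 1.86 and 2.71 against 5.86 and 4.94 FPKM. Their rise there was built into the filter, so the count gives them no support.

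A list of 20 YAP and TAZ target genes other than Ctgf and Cyr61 had 16 tested members. Of these, TGF-β raised 1 in EpH4 cells, Tgfb2 (log2 0.55; limma, adjusted p = 0.0496), and 2 in EpRas cells, Ankrd1 (1.28; adjusted p = 0.00875) and Tgfb2 (1.04; adjusted p = 0.00692). Over all tested genes 6.48% were raised in EpH4 and 1.9% in EpRas cells, so the count in EpH4 cells is near that background. Tgfb2 reached 5 FPKM only in treated EpH4 libraries (6.83 and 6.66 FPKM, from 4.25 and 4.36 untreated), so its rise there was partly built into the filter. In EpRas cells it had 0.556 and 0.465 FPKM untreated and 2.06 and 2.14 FPKM treated. The median log2 change of the 16 was 0.20 in EpH4 and 0.04 in EpRas cells. Without TGF-β, 3 of 16 were lower in EpRas cells, against 9.11% of all tested genes, Igfbp3 (-2.43), Tgfb2 (-1.81) and Amotl2 (-0.82). With TGF-β, 4 were lower and 2, Ankrd1 (1.95) and Axl (0.59), were higher, against 12.3% and 8.92%. Igfbp3 and Tgfb2, lower in both states, reached at most 0.872 and 2.14 FPKM in untransfected EpRas cells. They were tested only through EpH4 libraries, and could hardly have passed as higher in EpRas cells. The effect of TGF-β on Ankrd1 was larger in EpRas cells by 1.54 ± 0.25 (SE; limma, adjusted p = 0.0491).

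In transfected EpRas cells both targeted genes were lower with the siRNA pairs than with siNC. Etv4 stood at 20.2% and 48.5% of the siNC level with pair 1 and pair 2 without TGF-β, and at 19.6% and 29.4% with it. Etv5 stood at 18.3% and 14.2% without and 23.2% and 22.5% with TGF-β. Since each condition had 1 library, no test was made, and a gene was counted only where both pairs were at least 2-fold from siNC in the same direction. Of the 10 genes, 7 reached 5 FPKM in these libraries, and Postn, Nov and Thbs2 did not.

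Sparc and Wisp1 were the 2 of these 7 that met this rule, both higher with knockdown, without TGF-β and with it. Over all genes that reached 5 FPKM, 2.23% were higher and 3.05% lower by the same rule without TGF-β, and 1.87% and 2.98% with it. Sparc was at 121 FPKM with siNC, 261 with pair 1 and 298 with pair 2 without TGF-β, ratios of 2.15 and 2.46. With TGF-β its levels were 174, 556 and 546 FPKM, ratios of 3.20 and 3.14. The siNC libraries were the lowest for Sparc in either state, and the siNC library with TGF-β stood below both untreated knockdown libraries. Untransfected EpRas cells had 286 and 384 FPKM without and 726 and 593 FPKM with TGF-β, nearer to the knockdown than to the siNC libraries, although those tables were normalized separately and no test was made across them.

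Wisp1 was at 0.949 FPKM with siNC, 2.86 with pair 1 and 4.65 with pair 2 without TGF-β, from 34, 139 and 212 reads. The ratios were 3.01 (95% interval 2.06 to 4.52) and 4.90 (3.40 to 7.26), where the intervals cover counting error only. With TGF-β its levels were 7.09, 30.7 and 19.1 FPKM, ratios of 4.33 (3.89 to 4.82) and 2.69 (2.40 to 3.03). The untransfected EpRas replicates of Wisp1 differed by 2.61-fold and 2.04-fold, which is close to the smaller of these ratios. With 1 FPKM added before the ratio was taken, Wisp1 without TGF-β no longer met the rule. Of the 3 basal markers, Krt14 was at 109 and 140 FPKM with siNC and at 214 to 365 FPKM with the pairs, while Krt5 was listed at 0 with the pairs and Trp63 reached at most 0.285 FPKM. The 6 fibroblast markers summed to 4.42 FPKM with siNC, 20.4 with pair 1 and 7.23 with pair 2 without TGF-β, and to 9.60, 33.8 and 10.4 FPKM with it, with Lum listed at 0. Col1a1 was the largest contributor with pair 1, at 14.3 FPKM untreated and 27.7 FPKM treated, whereas Pdgfra, the largest with siNC, was at 3.21 FPKM with siNC, 1.76 with pair 1 and 3.67 with pair 2 untreated and at 6.79, 2.33 and 3.86 FPKM treated. The macrophage markers summed to 6.48, 3.28 and 5.00 FPKM with siNC, pair 1 and pair 2 untreated and to 11.5, 5.10 and 6.99 FPKM treated. The part of these markers in the higher Sparc and Wisp1 was not tested.

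The siRNA pairs parted for the CCN genes Ctgf and Cyr61. Ctgf was at 80.3 FPKM with siNC, 153 with pair 1 and 42.1 with pair 2 without TGF-β, ratios of 1.90 and 0.524. With TGF-β its levels were 525, 983 and 423 FPKM, ratios of 1.87 and 0.806. Pair 1 thus lay above and pair 2 below siNC in both states. Cyr61 followed the same order, at 189, 237 and 53.4 FPKM without TGF-β and 359, 535 and 242 FPKM with it. The level with pair 1 was at least 2-fold that with pair 2 for these 2 genes of the 7 in either state, against 2.75% of all genes without TGF-β and 2.66% with it, and no gene of the 7 was 2-fold higher with pair 2, where 2.58% and 2.93% of all genes were.

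Tnc was at 59.8 FPKM with siNC, 36.5 with pair 1 and 27.5 with pair 2 without TGF-β, ratios of 0.611 and 0.459, and the treated libraries gave 255, 428 and 281 FPKM, ratios of 1.68 and 1.10. Both pairs were thus below siNC without TGF-β and above it with TGF-β. Thbs1 gave 139, 139 and 97.3 FPKM in the untreated libraries and 154, 285 and 158 FPKM in the treated ones. Spp1 gave 506, 409 and 616 FPKM untreated and 346, 246 and 373 FPKM treated, within 1.40-fold of siNC throughout.

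**Figure D3:**
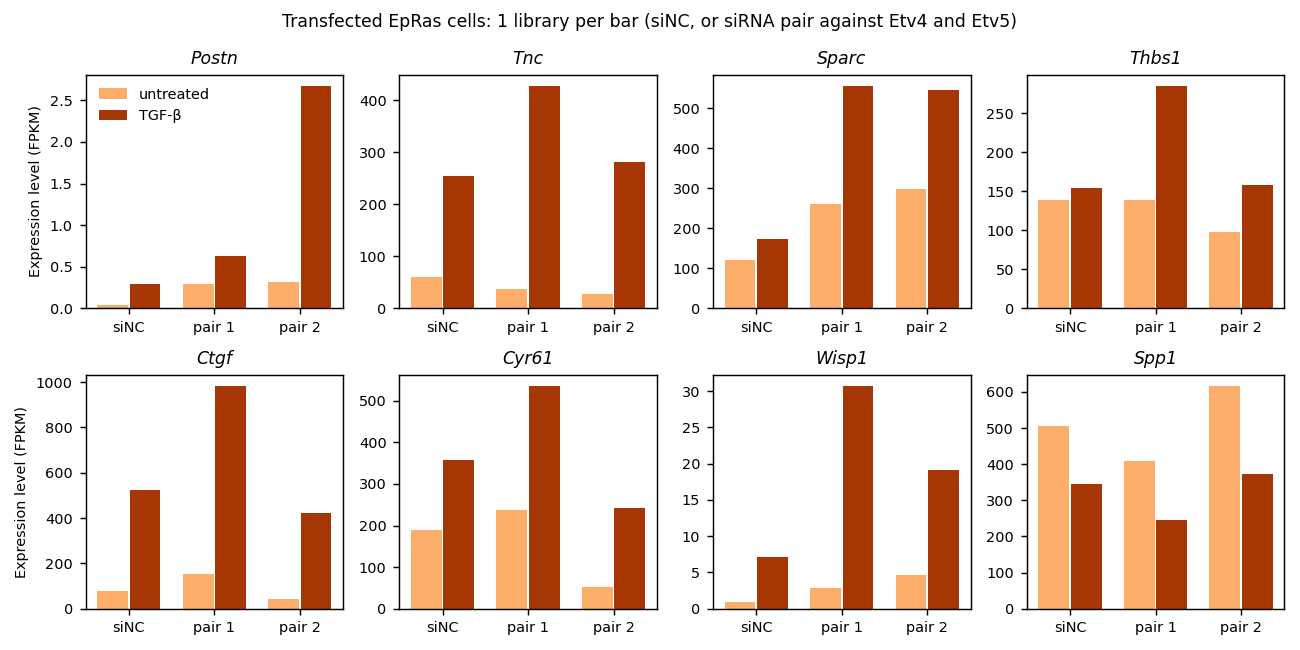
Expression level (FPKM, linear axis from 0, scaled separately in each panel) in transfected EpRas cells, for 8 of the 10 genes. Each bar is 1 library with no replicate: siNC, siRNA pair 1 or siRNA pair 2 against Etv4 and Etv5, untreated (light) or with TGF-β (dark). Sparc and Wisp1 bars were higher with both pairs than with siNC, while Ctgf and Cyr61 were highest with pair 1 and lowest with pair 2 in each state.

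Postn stayed under 5 FPKM in every transfected library. It was at 0.0460 FPKM with siNC, 0.296 with pair 1 and 0.316 with pair 2 without TGF-β, and the treated libraries gave 0.291, 0.633 and 2.68 FPKM. These correspond to about 1, 9 and 9 reads and about 11, 19 and 72 reads, so the untreated siNC library is too shallow for a ratio. With TGF-β the ratios to siNC were 2.18 for pair 1 and 9.21 for pair 2. Nov had 5, 13 and 8 reads without TGF-β and 0, 0 and 3 with it. Thbs2 was listed at 0 in 5 of 6 libraries and at 0.0381 FPKM in pair 2 with TGF-β, below the level of about 0.0426 to 0.0741 FPKM that 3 reads stand for in these libraries.

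In transfected cells Tnc, Ctgf and Wisp1 were at least 2-fold higher with TGF-β in all 3 transfections, which is 3 of 7 genes against 1.65% of all genes, while 0.957% were lower. Wisp1 reached 5 FPKM with siNC and both pairs only after TGF-β, so its higher level there was partly built into the filter. Tnc was 4.26-fold higher with siNC, 11.7-fold with pair 1 and 10.2-fold with pair 2. The ratios of Ctgf were 6.54, 6.44 and 10.0 in the same order, and those of Wisp1 were 7.47, 10.7 and 4.11. The ratios of Cyr61 were 1.89, 2.26 and 4.52, those of Sparc 1.43, 2.13 and 1.83, and those of Thbs1 1.11, 2.05 and 1.62. Spp1 was again lower, at ratios of 0.683, 0.602 and 0.605. No 2 of these ratios can be told apart by a test, since each rests on 1 library with and 1 without TGF-β.

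**Figure D4:**
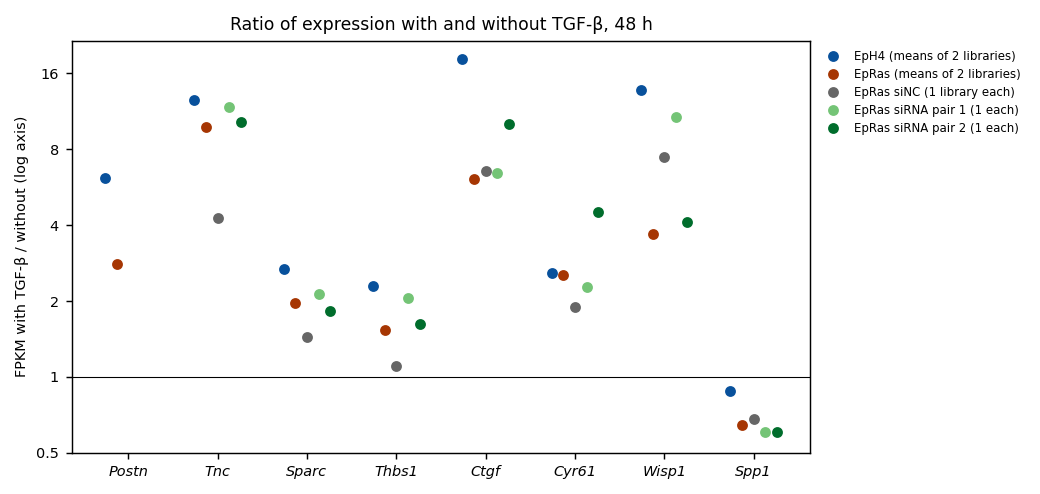
Ratio of FPKM with TGF-β to FPKM without it (log axis) for 8 genes. Untransfected EpH4 and EpRas points are ratios of the means of 2 libraries, and the siNC, pair 1 and pair 2 points are ratios of single libraries, shown for 7 genes. Tnc, Ctgf and Wisp1 lay above 2 in all 5 settings, and Spp1 lay below 1 in all 5.

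In the transfected cells the receptor list had 10 of 17 genes at 5 FPKM or more. Cd44 was lower with both pairs without TGF-β, at ratios of 0.322 and 0.458, from 128 FPKM with siNC. It was the 1 receptor of the 10 to meet the rule without TGF-β, where 3.05% of all genes were lower and 2.23% higher, and none did with it, where 2.98% and 1.87% did. With TGF-β, Itga5 was higher in all 3 transfections, at ratios of 3.29, 5.49 and 5.68. Itgb3, the partner of αv in the vitronectin receptor, gave 0.217, 0.391 and 0.436 FPKM untreated and 5.81, 4.85 and 7.26 FPKM treated, and it reached 5 FPKM only in treated libraries, so that direction was built into the filter. None of 14 YAP and TAZ targets met the rule with knockdown in either state, and 1, Nt5e, was higher with TGF-β in all 3 transfections, at ratios of 2.24, 3.25 and 3.64, against 1.65% of all genes.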

How the data were processed

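Libraries were prepared by the authors with a directional Ion Proton protocol and aligned to mm10. Per the labels, processing was independent for untransfected and transfected samples. The submitters' processing notes name TopHat2 2.0.11, Bowtie2 2.2.2.2 and Cufflinks 2.2.0. The deposited values are FPKM from Cuffdiff, 1 table for 8 untransfected and 1 for 6 transfected libraries. No tests were made across the tables. All 14 libraries were grouped by the labels. The study calls the 2 libraries per group biological replicates, and the labels name no cultures. FPKM as deposited were analysed as log2(FPKM + 1) with limma 3.58.1 in R 4.3.3, with group means, 1 spread over 4 groups, Benjamini-Hochberg adjustment over all tested genes and a filter of at least 5 FPKM in any library (9100 genes). Transfected cells (9094 genes at the filter) were compared by FPKM ratios. The scripts were tested on simulated data.

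Relative depth was recovered from the steps between low FPKM values, and ranged from 0.609 to 1.36 in untransfected and from 1 to 1.74 in transfected libraries, each relative to the first library of its table. The fragment totals, the reads of Postn and the floor of Thbs2 are approximate, since they rest on GENCODE transcript lengths. Intervals of read ratios and the floor of 3 reads cover counting error only. Gene loci are those of the deposited tables, counted from 1. All 10 members were named, with list members by the largest passing changes, up to 3 in each direction and comparison, and the 3 most parallel genes per member, of which some are not reported here. The members, lists and comparisons were chosen with earlier results of these data known. Promoters of Ctgf, Thbs1, Nov and Wisp1 were not used here.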

Additional observations from a re-analysis of the deposited data

How the results depend on the processing

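The same direction and side of the threshold were kept in 624 of 667 alternative values of the tested genes, with 26 losing and 10 gaining the call and 7 changing sign. For TGF-β in EpRas cells the count of genes passing the test, 5 as reported, was 3 with no filter on low values, 2 when the fit held only the compared groups, 3 with the replicate block and 3 to 6 when each library was left out in turn. The number with a TGF-β effect that differed between the lines, 0 as reported, was 3 with 5 FPKM added, 1 after quantile normalization and 0 to 1 when each library was left out. The other counts with a library left out were 3 throughout for the untreated lines, 5 to 6 for the lines with TGF-β and 5 to 7 for TGF-β in EpH4 cells. For knockdown without TGF-β, the count of 2 was 1 for ratios of FPKM + 1. The cause of these changes was not tested.

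Signs changed for differences that did not pass the test. The difference of the Cyr61 effects, -0.03 as reported, was 0.0372 after quantile normalization and -0.15 to 0.0822 when each library was left out. The difference of the lines in Spp1 with TGF-β was -0.16 to 0.21 when each library was left out, below 0 without EpH4 or EpRas TGF-β replicate 1. The difference of the untreated lines was -0.26 to 0.16 in Sparc and -0.75 to 0.00301 in Wisp1 (-0.05 and -0.38 as reported), above 0 without EpRas untreated replicate 1. Cyr61 lost its TGF-β call in EpRas cells in a fit of the EpRas groups alone (limma, adjusted p = 0.077).

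Replicate numbers did not pair the samples, the correlations of same-numbered deviations being -0.35 to 0.08, and the replicate block changed no other count of the tested genes by over 1.5 times. With 2 libraries per group and 1 per siRNA condition, and with 12 to 66 Postn reads in EpRas libraries, small differences were not detectable. Median ratio scaling moved untransfected libraries by up to 0.0202 on the log2 scale.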

Other observations

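Of 20 further matricellular genes, none reached 5 FPKM in untransfected cells, 16 stayed under 1 FPKM and 5 were listed at 0 in all 8 libraries. Smoc1, a calcium-binding matricellular protein of the Sparc family, came nearest, with 0.992 and 0.924 FPKM in the EpH4 line before TGF-β, 4.99 and 4.96 FPKM after it, 0.171 and 0.184 FPKM in the EpRas line before TGF-β and 2.25 and 2.11 FPKM after it. In both lines the treated libraries were the higher ones. Dmp1, an acidic protein of mineralized matrix, was listed at 0 in both untreated EpH4 libraries and had 0.369 and 0.310 FPKM in the treated ones, with 0.983 and 0.529 FPKM in the EpRas line before TGF-β and 2.25 and 1.90 FPKM after it. It was chosen after its values were seen, and neither gene was tested.

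In transfected EpRas cells 2 of the 20 reached 5 FPKM, both of them only in knockdown libraries, so a higher level with the pairs was built into the choice. Wisp2, a CCN family member, was at 1.03 FPKM with siNC, 8.88 with pair 1 and 5.65 with pair 2 without TGF-β, and the treated libraries gave 0.295, 4.59 and 3.60 FPKM. Smoc1 was listed at 0 with siNC and at 0.334 and 0.0973 FPKM with the pairs without TGF-β, and the treated libraries gave 1.47, 6.20 and 5.31 FPKM. Each value is 1 library, so the differences have no replicate check.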
